A study of Homo sapiens with 6 samples.

Results

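The genes described here are secreted factors of blood coagulation and of complement, with their inhibitors, that the liver makes. They were taken by gene symbol from a list of 42 names, and 40 of them have a row among the 20026 genes of the deposited table. *F9* and *C9* have no row and were not analysed here.

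RNA-seq was done on 6 libraries of HepG2, a human liver cancer cell line, with 2 libraries in each of 3 groups. Scr cells, whose genotype is given as WT, received the Cas9 and GFP plasmid PX458 without a miRNA-targeting guide. For each KO, Cas9 was directed by paired guides to both sides of 1 mature miRNA in the gene cluster that encodes miR-23a, miR-27a and also miR-24-2, and edited colonies were grown from single sorted cells. The study describes 2 clones of each KO. It reports by qPCR that the miR-23a KO clones also had less miR-27a-3p and miR-24-3p. The miR-27a KO clones had less miR-24 and slightly more miR-23a-3p. Which clone each library came from is not given in the sources used here. Nothing says that the replicates were separate cultures, so they may be technical, and p-values measure only the spread between these libraries. The miRNA genes of the cluster have no row in the table, so the edited genes could not check the labels and each group rests on its title. Some label wording (the cell type and the series design) does not match HepG2 KO cells, and the titles were followed. Total counts ranged from 14405302 in Scr replicate 2 to 16515321 in miR-23a KO replicate 1, and between 16559 and 17482 genes had a count in each library.

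Hepatocytes secrete most of the plasma proteins of both systems as inactive precursors. In coagulation, a chain of serine proteases, several of them carboxylated with the help of vitamin K, ends in thrombin, which turns fibrinogen into fibrin, while plasmin dissolves the clot and inhibitors of the serpin family hold the proteases in check. In complement, the classical, lectin and alternative routes meet at the cleavage of C3, and the terminal components build a pore in the target membrane.

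The libraries of miR-23a KO stood apart from each other. Over 36 members with at least 40 counts in all, the standard deviation of the log2 ratio between the libraries of a pair was 1.06 in miR-23a KO, 0.472 in Scr and 0.145 in miR-27a KO. Over 14094 genes it was 1.15, 0.519 and 0.300. In miR-23a KO, 13 of the 36 members lay more than 2-fold apart between replicates, against 1 in Scr and 0 in miR-27a KO. Over all genes, 42.9% lay that far apart in miR-23a KO, 5.56% in Scr and 1.31% in miR-27a KO.

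The distance within the miR-23a KO pair went with base composition. Across 36 members, the log2 ratio of replicate 2 over replicate 1 correlated with the GC content of the transcript at r = -0.66 in miR-23a KO, -0.45 in Scr and -0.24 in miR-27a KO. Across 13427 genes, r was -0.66, -0.41 and -0.05 (genes of a library are not independent replicates). The 4 members more than 2-fold higher in replicate 2 (*C5*, *CFI*, *F5* and *PROS1*) had a median GC content of 40.5%. The 9 higher in replicate 1 (*F12*, *C8G*, *MASP2*, *SERPINC1*, *SERPINF2*, *F8*, *PROC*, *KNG1* and *F10*) had 59.3%. The part of base composition in the values below was not tested beyond a fit with GC content and length corrected, and each such value is named.

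**Figure D1:**
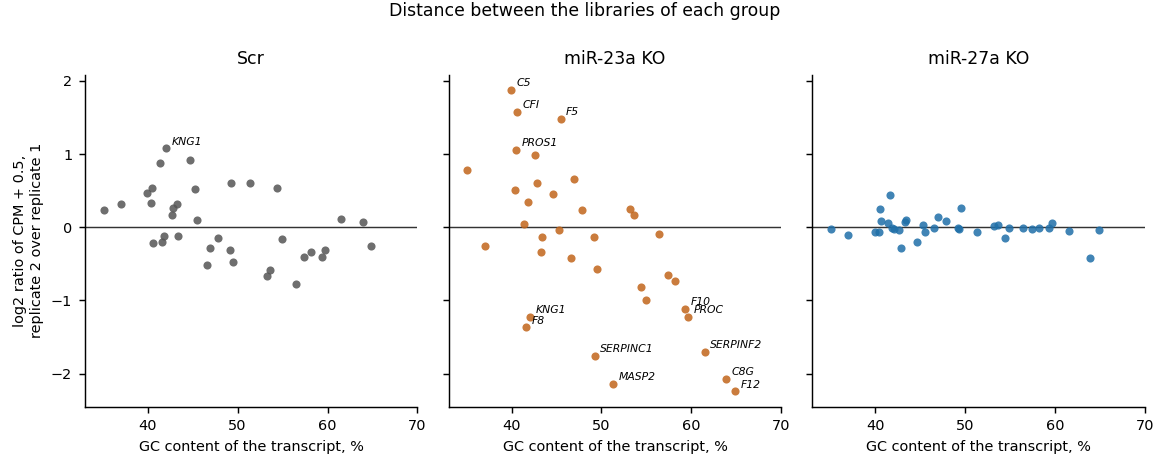
Log2 ratio of CPM + 0.5 in replicate 2 over replicate 1 (vertical axis) against the GC content of the transcript in percent (horizontal axis), for 36 members, with a panel for each group. Each point is a member, and those more than 2-fold apart are named. The miR-23a KO points fall from *C5* at 1.88 to *F12* at -2.24, while all miR-27a KO points lie near 0.

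The sequences of both edited miRNAs are shown because a target site is read from their seeds, bases 2 to 8, in capitals here. They come from RefSeq (GRCh38.p14), on the minus strand at chr19:13836595-13836615 for miR-23a-3p and chr19:13836447-13836467 for miR-27a-3p.
hsa-miR-23a-3p: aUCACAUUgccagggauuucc
hsa-miR-27a-3p: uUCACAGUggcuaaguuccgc

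In the longest 3'-UTR of each gene in GENCODE 29 (GRCh38), 6 of 40 members (15%) held an exact 7-base match to either seed, against 30.2% of 15915 genes. The members' 3'-UTRs were shorter, with a median of 394 bases against 1228. A miR-23a-3p site lay in 4 members (10%, against 19.3% of all genes), *C6*, *KNG1*, *MBL2* and *PROS1*. A miR-27a-3p site lay in 3 (7.5%, against 16.7%), *PROS1*, *TFPI* and *PROZ*. Each site is printed with 8 bases on either side and the match in capitals, first the miR-23a-3p sites of *C6* (chr5:41142546-41142552, minus strand), *KNG1* (chr3:186743280-186743286, plus strand), *MBL2* (chr10:52765456-52765462, minus strand) and *PROS1* (chr3:93873394-93873400, minus strand), then the miR-27a-3p sites of *PROS1* (chr3:93873254-93873260, minus strand), *TFPI* (chr2:187464384-187464390, minus strand) and *PROZ* (chr13:113172281-113172287, plus strand).
C6: acaaaaatAATGTGActtctgag
KNG1: tattatggAATGTGAtgcaaagt
MBL2: aatgagatAATGTGAtattatac
PROS1 (miR-23a-3p site): gttgccaaAATGTGAttgttgaa
PROS1 (miR-27a-3p site): ctgctggtACTGTGAtgcatttc
TFPI: tgcatctaACTGTGAattgtata
PROZ: taccgagcACTGTGAcctttctt
The log2 fold change in miR-27a KO was 0.27 for *PROS1*, 0.14 for *TFPI* and -0.18 for *PROZ*, with adjusted p of 0.406, 0.383 and 0.677 (edgeR with Benjamini-Hochberg adjustment), and only *TFPI* had both libraries above both Scr libraries. When GC content and length were corrected, *PROS1* was at 0.07, and *TFPI* (-0.05) and *PROZ* (0.03) changed direction. Without Scr replicate 1 the values were 0.03, 0.04 and -0.43, and without Scr replicate 2 they were 0.57, 0.27 and 0.14. In miR-23a KO, *C6*, *KNG1*, *MBL2* and *PROS1* were at 1.35, -1.12, -1.56 and 0.50, and each adjusted p was 1.00 (edgeR with Benjamini-Hochberg adjustment). These values moved with the library left out, to 1.63, -2.03, -1.78 and 0.89 without miR-23a KO replicate 1. With replicate 2 of that group left out they were 0.84, -0.58, -1.42 and -0.22. *KNG1* was at -0.40 without Scr replicate 2, and *PROS1* at 0.19 without Scr replicate 1. With GC content and length corrected the 4 members were at 1.16, -0.95, -1.97 and 0.11. *TFPI* and *PROZ*, with miR-27a-3p sites, were at 0.55 and 0.41 in miR-23a KO, not called, and at -0.13 and 0.41 with that correction. Without miR-23a KO replicate 1 they were at 0.85 and -0.09, and without replicate 2 at 0.03 and 0.72. Sites of miR-24 were not searched.

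The members spanned a wide range of levels. By mean CPM (counts scaled by TMM to a common library size) in Scr, 14 members had 100 or more, 15 had 10 to 100, 5 had 1 to 10 and 6 had under 1. Per transcript length, as mean TPM in Scr, *C3* was highest with 1585, followed by *F2* (599), *SERPINF2* (549), *SERPIND1* (364) and *C2* (265). Those under 1 TPM were *F8*, *F13B*, *PLG*, *SERPING1*, *KLKB1* and *C6*. Plasminogen (*PLG*), the precursor of plasmin, had 0 and 4 counts in Scr, 3 and 0 in miR-23a KO, with 0 and 1 in miR-27a KO. *F13B*, which carries the crosslinking enzyme factor XIII in plasma, had 4 and 11, 4 and 3, and 0 and 0 counts in the same order, and *SERPING1*, the inhibitor of the first complement proteases, had 4 and 0, 2 and 1, and 0 and 0. These levels are at or near the limit that counting allows.

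**Figure D2:**
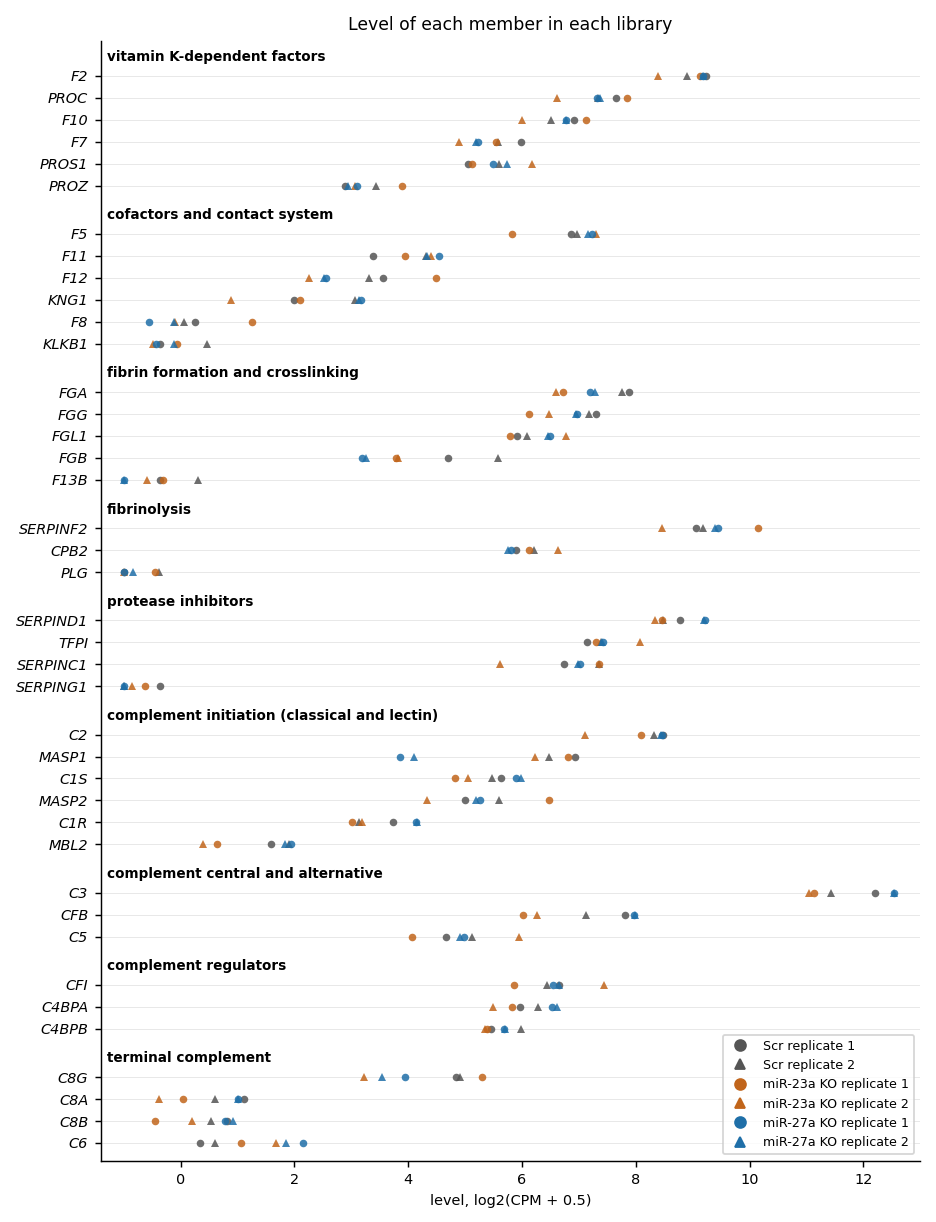
Level of each of 40 members in each of 6 libraries, as log2(CPM + 0.5), grouped by role. Colours mark the groups, circles replicate 1 and triangles replicate 2. The miR-27a KO points of a member lie close together, and the miR-23a KO points often lie on either side of the others.

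Together, the members took 0.842% and 0.669% of the counts of Scr, 0.50% and 0.581% in miR-23a KO, with 1.05% and 1.05% in miR-27a KO. All miR-27a KO shares lay above those of Scr, and all miR-23a KO shares below. In each library *C3* was the most abundant, with 0.457% and 0.284% in Scr, against 0.179% and 0.246% in miR-23a KO, with 0.622% and 0.617% in miR-27a KO. Without *C3* the order of the groups was the same and the distances smaller, with 0.385% and 0.386% in Scr, against 0.321% and 0.335% in miR-23a KO, with 0.432% and 0.431% in miR-27a KO. Coagulation genes alone took between 0.255% and 0.326% of each library and complement genes between 0.242% and 0.728%. Fewer cells of a type and less RNA per cell cannot be told apart in bulk samples.

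**Figure D3:**
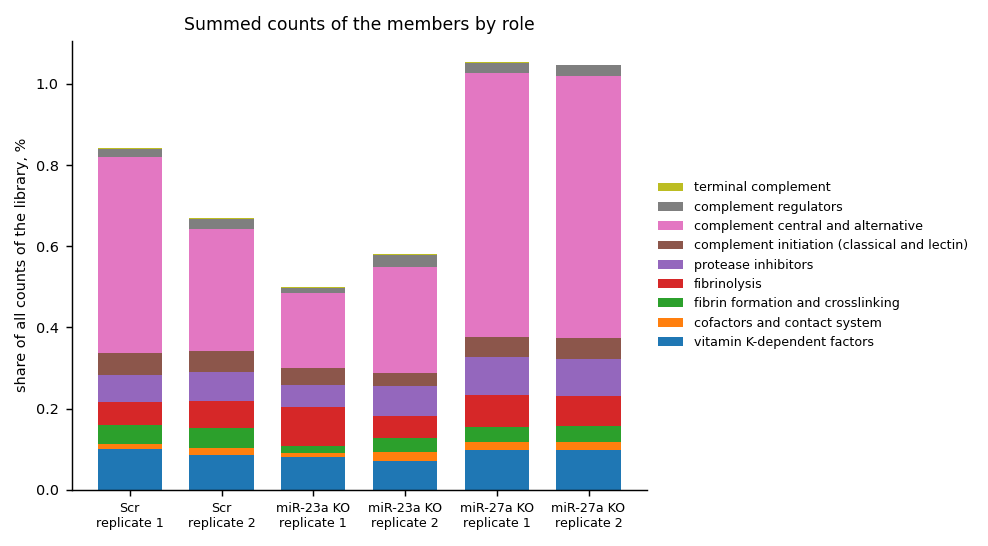
Summed counts of 40 members as a share of all counts of each library in percent, stacked by role, one bar for each library. The bars reach from 0.50% in miR-23a KO replicate 1 to 1.05% in miR-27a KO, and the central complement genes, mostly *C3*, make the largest segment of each.

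Each KO group was compared with Scr, and the KO groups with each other, with the quasi-likelihood test of edgeR, and p was adjusted over all genes tested (Benjamini-Hochberg). Calls needed more than a 1.5-fold change and an adjusted p under 0.05. Both KO comparisons use the same Scr libraries.

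Between miR-23a KO and Scr, 36 members passed the filter on low counts. edgeR called 0 of them higher and 0 lower, as it did for 0% and 0% of 13787 genes, and DESeq2 and limma also called 0 members (over all genes DESeq2 called 4 higher and 59 lower, and limma 0 and 0). At an unadjusted p under 0.05 in edgeR there were 3 members, and over all genes 118 with a positive and 214 with a negative fold change. Both miR-23a KO libraries exceeded both Scr libraries for 1 member, against 8.88% of all genes, and below them for 14 members, against 14.9%. The median log2 fold change was -0.19 for the members and 0.16 for all genes. The count of calls rested on which miR-23a KO library was used, as did that over all genes. Without replicate 1 edgeR called 1 member higher and 4 lower, against 322 and 248 of 14417 genes, and without replicate 2 it called 2 and 5, against 1691 and 929 of 14136 genes.

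Between miR-27a KO and Scr, 35 members were tested. edgeR called 1 higher (*C6*), where 3.52% of 13821 genes were, and 4 lower (*MASP1*, *FGB*, *C8G* and *F12*), where 6.74% were. At an unadjusted p under 0.05 in edgeR there were 16 members, and over all genes 1902 with a positive and 2544 with a negative fold change. At an adjusted p under 0.05 and any fold change, a rule chosen after seeing the data, 3 members were higher, against 4.88% of genes, and 5 lower, against 9.11%. Both miR-27a KO libraries exceeded both Scr libraries for 13 members, against 32.4% of all genes, and below them for 8, against 31.9%. The median log2 fold change was 0.09 for the members and 0.01 for all genes. Without Scr replicate 1 edgeR called 5 members higher and 4 lower, against 1056 and 1264 of 14162 genes, and without Scr replicate 2 it called 4 and 6, against 1917 and 1813 of 14254 genes. Without miR-27a KO replicate 1 it called 0 and 3, against 110 and 313 of 14302 genes, and without miR-27a KO replicate 2 it called 0 and 2, against 82 and 246 of 14293 genes.

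Between the KO groups, 35 members were tested and edgeR called 0 higher and 0 lower in miR-23a KO, as for 0% and 0% of 13841 genes, with 9 members at an unadjusted p under 0.05, and over all genes 645 higher and 563 lower at that level. DESeq2 called 1 member higher (*MASP1*) and 1 lower (*CFB*), against 259 and 218 of all genes, and limma called 0 members, against 8 and 13 of all genes. Both miR-23a KO libraries exceeded both miR-27a KO libraries for 3 members, against 18.7% of all genes, and below them for 16, against 20.7%. The median log2 fold change was -0.26 for the members and 0.11 for all genes. With a single miR-23a KO library the spread came from the close miR-27a KO pair alone, and calls over all genes were then many more. Without replicate 1 edgeR called 6 members higher and 17 lower, against 2761 and 2133 of 14408 genes, and without replicate 2 it called 8 and 15, against 3584 and 3716 of 14209 genes.

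**Figure D4:**
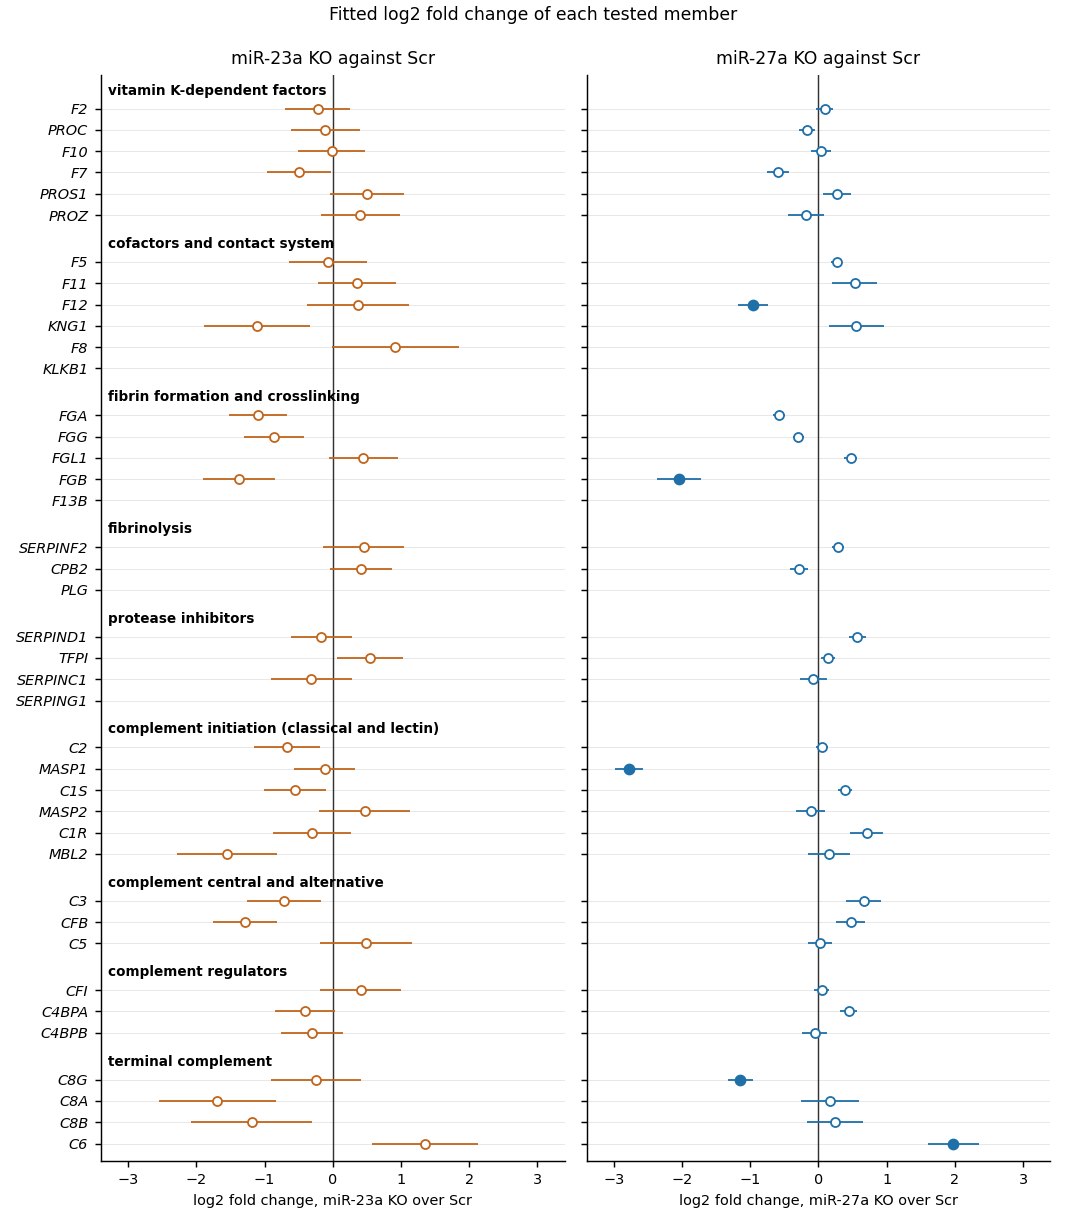
Fitted log2 fold change of each tested member over Scr, with its standard error as a bar, in miR-23a KO (left) and miR-27a KO (right), grouped by role. Filled points were called (edgeR with Benjamini-Hochberg adjustment), and open points were not. The filled points, all in miR-27a KO, run from *MASP1* at -2.78 to *C6* at 1.98.

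Among the vitamin K-dependent factors, 6 members were tested and 0 called by edgeR in either comparison with Scr (DESeq2 called *F7* lower in miR-27a KO). At an unadjusted p under 0.05 in edgeR there was 1 in miR-27a KO, against 1902 higher and 2544 lower of 13821 genes. Prothrombin (*F2*), the precursor of thrombin and the second most abundant member per length, had 603 and 479 CPM in Scr, 562 and 336 in miR-23a KO, with 578 and 577 in miR-27a KO. The miR-27a KO values lay between the Scr values. *F7*, *F10* and *PROZ*, whose genes are neighbours on chromosome 13, encode the protease that starts coagulation with tissue factor, the protease that makes thrombin, and a cofactor for the inhibition of the latter. *F7* had 62.5 and 47.0 CPM in Scr, 45.9 and 29.2 in miR-23a KO, with 36.8 and 36.1 in miR-27a KO, so all 4 KO libraries lay below both Scr libraries. The log2 fold change in miR-27a KO was -0.59 (standard error 0.16, adjusted p = 0.0682, edgeR with Benjamini-Hochberg adjustment), and without Scr replicate 2 it was -0.78 and called. It was smaller without Scr replicate 1 (-0.36) and when GC content and length were corrected (-0.34), and not called in either case. *F10* had 121 and 91.0 CPM in Scr, 139 and 63.8 in miR-23a KO, with 109 and 108 in miR-27a KO. *PROZ* had 6.95 and 10.3, 14.3 and 7.91, and 8.05 and 7.22 CPM in the same order. For both genes the groups overlapped.

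In the contact system, which starts coagulation on charged surfaces, factor XII (*F12*, gene 2161) is the first protease. It had 11.3 and 9.39 CPM in Scr, 22.0 and 4.25 in miR-23a KO, with 5.39 and 5.24 in miR-27a KO. The miR-27a KO libraries were low and close together, while the miR-23a KO libraries lay on either side of Scr. *F12* fell by 0.96 on the log2 scale in miR-27a KO (standard error 0.22, adjusted p = 0.0463, edgeR with Benjamini-Hochberg adjustment). Without either miR-27a KO library it was no longer called (-0.98 without replicate 1 and -0.93 without replicate 2). The call held in 3 of 8 other settings. With GC content and length corrected, *F12* was at -0.63 and not called. The GC content of its transcript, 64.9%, was the highest of all members.

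Factor XI (*F11*) is the protease that factor XII activates, and *KLKB1*, its neighbour on chromosome 4, encodes prekallikrein. *F11* had 9.94 and 19.3 CPM in Scr, 14.9 and 20.7 in miR-23a KO, with 22.7 and 19.6 in miR-27a KO. The last pair exceeded both Scr libraries, by little over Scr replicate 2, and *F11* was called without that replicate (1.09) but was at 0.14 without Scr replicate 1. *KLKB1* had between 4 and 13 counts in every library and was not tested. High-molecular-weight kininogen (*KNG1*), the cofactor of both, had 3.48 and 7.90 CPM in Scr, 3.80 and 1.35 in miR-23a KO, with 8.48 and 8.31 in miR-27a KO, and was called higher in miR-27a KO without Scr replicate 2 (1.27) but was at 0.09 without Scr replicate 1. Of the cofactors factor V (*F5*) and factor VIII (*F8*), *F8* had at most 25 counts in a library. In miR-27a KO *F5* had 148.9 and 142.5 CPM, above both Scr libraries. Its log2 fold change there was 0.27 (standard error 0.08, adjusted p = 0.0947, edgeR with Benjamini-Hochberg adjustment), not called. *F5* had 56.3 and 158 CPM in miR-23a KO, on either side of Scr (116 and 125), and was at -1.10 and called there without replicate 2 of that group but at 0.43 and not called without replicate 1.

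Fibrinogen is built from 3 chains encoded side by side on chromosome 4 by *FGB* (gene 2244), *FGA* (gene 2243) and *FGG* (gene 2266). *FGA* had 234 and 215 CPM in Scr, 105 and 96.1 in miR-23a KO, with 146 and 156 in miR-27a KO. *FGB* had 25.5 and 47.5 CPM in Scr, 13.2 and 13.6 in miR-23a KO, with 8.66 and 9.03 in miR-27a KO. *FGG* had 158 and 145 CPM in Scr, 69.2 and 88.3 in miR-23a KO, with 124 and 123 in miR-27a KO. For each chain all 4 KO libraries lay below both Scr libraries. Of all genes, 14.9% had both miR-23a KO libraries below both Scr libraries, and 31.9% both miR-27a KO libraries. How many genes had both was not counted. The lowest pair was that of miR-23a KO for *FGA* and *FGG* and that of miR-27a KO for *FGB*. Per length, mean TPM in Scr was 137 for *FGA*, 42.1 for *FGB* and 193 for *FGG*, and in miR-27a KO it was 99.2, 10.8 and 170.

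In miR-27a KO, *FGB* fell by 2.05 on the log2 scale (standard error 0.32, adjusted p = 0.0212, edgeR with Benjamini-Hochberg adjustment). The call held in 7 of 8 other settings and with any library left out, from -1.53 without Scr replicate 2 to -2.42 without Scr replicate 1. *FGA* was at -0.58 (standard error 0.09, adjusted p = 0.0198, edgeR with Benjamini-Hochberg adjustment), which is 1.49-fold and short of the threshold. It was called without Scr replicate 2 (-0.63) or when GC content and length were corrected (-0.75), and its adjusted p was over 0.05 in edgeR with Benjamini-Hochberg without miR-27a KO replicate 1 (-0.52) or replicate 2 (-0.61). *FGG* was at -0.30 (adjusted p = 0.0784, edgeR with Benjamini-Hochberg adjustment). In miR-23a KO the log2 fold changes were -1.09 for *FGA*, -1.38 for *FGB* and -0.87 for *FGG*, with standard errors of 0.43, 0.53 and 0.44 and adjusted p of 1.00 each (edgeR with Benjamini-Hochberg adjustment). Without miR-23a KO replicate 2 all 3 were called there (-1.09, -1.46 and -1.13), and without miR-23a KO replicate 1 *FGA* was (-1.18). Between the KO groups, *FGB* was at 0.61 and *FGA* and *FGG* at -0.58 and -0.64, and with edgeR none of these passed an adjusted p under 0.05 (0.756, 0.739 and 0.713, Benjamini-Hochberg). With a miR-23a KO library left out, *FGB* was called without replicate 1 (0.61) or replicate 2 (0.59), *FGA* without replicate 1 (-0.66) and *FGG* without replicate 2 (-0.83). In miR-23a KO against Scr, *FGB* was at -0.86 without Scr replicate 2 and -1.79 without Scr replicate 1.

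The promoters of the 3 chains are printed because their transcripts lay below Scr together. Each is 300 bases from RefSeq (GRCh38.p14), from 250 before to 50 after the start, on the minus strand at chr4:154590693-154590992 for *FGA*, the plus strand at chr4:154562730-154563029 for *FGB*, and the minus strand at chr4:154612607-154612906 for *FGG*. Capitals mark matches on either strand to 2 motifs. TTGCNNAA is a core of the sites of C/EBP proteins, and CTGGGAA lies in interleukin-6 response elements of acute-phase genes.
FGA: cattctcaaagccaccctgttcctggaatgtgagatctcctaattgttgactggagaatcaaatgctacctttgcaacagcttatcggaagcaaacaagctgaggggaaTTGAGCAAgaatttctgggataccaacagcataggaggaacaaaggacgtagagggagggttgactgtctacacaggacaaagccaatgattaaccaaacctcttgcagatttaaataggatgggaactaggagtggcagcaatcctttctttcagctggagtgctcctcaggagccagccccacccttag
FGB: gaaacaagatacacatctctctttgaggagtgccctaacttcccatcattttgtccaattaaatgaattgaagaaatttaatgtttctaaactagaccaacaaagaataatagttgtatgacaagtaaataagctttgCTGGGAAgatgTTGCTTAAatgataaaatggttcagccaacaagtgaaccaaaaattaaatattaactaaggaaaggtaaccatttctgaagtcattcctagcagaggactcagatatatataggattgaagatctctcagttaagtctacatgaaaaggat
FGG: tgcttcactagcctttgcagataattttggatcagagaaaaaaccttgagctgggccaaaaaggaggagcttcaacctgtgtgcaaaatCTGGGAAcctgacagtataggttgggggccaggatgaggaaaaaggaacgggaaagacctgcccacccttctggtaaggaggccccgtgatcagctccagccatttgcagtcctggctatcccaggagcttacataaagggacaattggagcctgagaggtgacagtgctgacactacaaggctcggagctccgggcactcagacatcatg
*FGB* has 2 windows among the promoters read, and only the first is printed. That printed window of *FGB* held 1 match to each motif, that of *FGA* 1 to the first, and that of *FGG* 1 to the last. Of 35116 promoters in the table, 10.5% held the first motif and 10.8% the last. Of the 44 windows of 33 members, 27.3% and 20.5% did. A match is a run of letters in the reference and no measure of binding.

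Fibrinogen-like protein *FGL1*, secreted by hepatocytes, went the other way in miR-27a KO. It had 59.8 and 67.1 CPM in Scr, 54.5 and 108 in miR-23a KO, with 89.6 and 87.0 in miR-27a KO. Both miR-27a KO libraries exceeded both Scr libraries, and the log2 fold change there was 0.47 (standard error 0.10, adjusted p = 0.0367, edgeR with Benjamini-Hochberg adjustment), below the fold threshold, and its adjusted p was over 0.05 without miR-27a KO replicate 1 (0.46) or replicate 2 (0.51).

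Of the genes that limit clotting or fibrin breakdown, 5 were tested and edgeR called 0 in either comparison with Scr (DESeq2 and limma called 0). At an unadjusted p under 0.05 in edgeR there were 2 in miR-27a KO, against 1902 higher and 2544 lower of 13821 genes. With GC content and length corrected, 2 of the 5 were called higher in miR-27a KO, *SERPIND1* (0.63) and *SERPINF2* (0.59, against 0.29 without that correction). *SERPINF2* encodes the inhibitor of plasmin and was the third most abundant member per length. It had 533 and 579 CPM in Scr, 1139 and 350 in miR-23a KO, with 693 and 669 in miR-27a KO. The miR-27a KO libraries were above both Scr libraries, and the miR-23a KO libraries were the highest and the lowest of all. Without miR-23a KO replicate 2 it was called higher there (1.03), and without replicate 1 it was at -0.62. *SERPIND1* encodes heparin cofactor II, an inhibitor of thrombin, and had 438 and 354 CPM in Scr, 353 and 322 in miR-23a KO, with 591 and 588 in miR-27a KO. In miR-27a KO it was at 0.57 on the log2 scale (standard error 0.12, adjusted p = 0.0407, edgeR with Benjamini-Hochberg adjustment), which is 1.48-fold and under the fold threshold. It was called without Scr replicate 1 (0.74) but not without Scr replicate 2 (0.43), and without miR-27a KO replicate 1 (0.57) or replicate 2 (0.59) its adjusted p was over 0.05 (edgeR with Benjamini-Hochberg). Antithrombin (*SERPINC1*), the main inhibitor of thrombin and factor Xa, had 107 and 162 CPM in Scr, 164 and 48.3 in miR-23a KO, with 129 and 127 in miR-27a KO. Its miR-27a KO values lay between the Scr values, and without miR-23a KO replicate 1 it was called lower in miR-23a KO (-1.43), while without replicate 2 it was at 0.29.

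In the lectin pathway, *MASP1* (gene 5648, chr3:187217285-187292022, GRCh38, minus strand) encodes a serine protease that acts with mannose-binding lectin. It had 122 and 88.2 CPM in Scr, 112 and 74.9 in miR-23a KO, with 13.9 and 16.7 in miR-27a KO. The miR-27a KO libraries were far below the other 4, and the miR-23a KO and Scr libraries overlapped. *MASP1* fell by 2.78 on the log2 scale in miR-27a KO, which is 6.87-fold (standard error 0.20, adjusted p = 0.00468, edgeR with Benjamini-Hochberg adjustment). The call held in all 8 other settings and with each library left out, from -2.99 to -2.52 in log2 fold change. In miR-23a KO *MASP1* was at -0.12 (standard error 0.45), at 0.22 with GC content and length corrected, and from -0.45 without miR-23a KO replicate 1 to 0.11 without Scr replicate 1. The direct comparison put miR-23a KO above miR-27a KO by 2.61 (standard error 0.39, adjusted p = 0.117, edgeR with Benjamini-Hochberg adjustment). That difference was called in 4 of 8 other settings, and with either miR-23a KO library left out (2.28 without replicate 1 and 2.87 without replicate 2).

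Its partners in that pathway did not share this pattern. *MASP2*, the protease that cleaves C4 and C2, had 31.4 and 47.9 CPM in Scr, 88.2 and 19.7 in miR-23a KO, with 37.7 and 35.8 in miR-27a KO. Mannose-binding lectin (*MBL2*), the recognition molecule, had 2.50 and 3.24 CPM in Scr, 1.06 and 0.807 in miR-23a KO, with 3.33 and 3.07 in miR-27a KO. For *MASP2* the miR-27a KO values lay within Scr and the miR-23a KO values on both sides of it, while for *MBL2* both miR-23a KO libraries were the lowest, at 14 and 15 counts. *MBL2* was at -1.56 on the log2 scale there (standard error 0.73, adjusted p = 1.00, edgeR with Benjamini-Hochberg adjustment). *MASP2* was called higher in miR-23a KO without replicate 2 of that group (1.15) and was at -0.97 without replicate 1.

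*C1R* and *C1S*, neighbours on chromosome 12, encode the proteases of the first component of the classical pathway. *C1R* had 12.7 and 8.31 CPM in Scr, 7.61 and 8.61 in miR-23a KO, with 17.1 and 17.4 in miR-27a KO. *C1S* had 49.0 and 44.1 CPM in Scr, 27.7 and 32.8 in miR-23a KO, with 59.2 and 63.0 in miR-27a KO. Both genes were highest in the miR-27a KO libraries, and *C1S* was lowest in both miR-23a KO libraries. In miR-27a KO their log2 fold changes were 0.71 and 0.39, with adjusted p of 0.114 and 0.0682 (edgeR with Benjamini-Hochberg adjustment). *C1R* was called in miR-27a KO when GC content and length were corrected (0.90) or Scr replicate 1 was left out (1.06), but not without Scr replicate 2 (0.44).

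*C2* and *CFB*, adjacent on chromosome 6 with gene models that overlap at the ends, encode the serine proteases of the classical and the alternative C3 convertase. *C2* had 354 and 318 CPM in Scr, 274 and 138 in miR-23a KO, with 350 and 349 in miR-27a KO. *CFB* had 223 and 140 CPM in Scr, 64.6 and 76.5 in miR-23a KO, with 250 and 253 in miR-27a KO. Both genes were lowest in the miR-23a KO libraries, and *CFB* was highest in miR-27a KO while *C2* lay within Scr there. The log2 fold change of *CFB* was -1.29 in miR-23a KO (standard error 0.47, adjusted p = 1.00) and 0.47 in miR-27a KO (standard error 0.22, adjusted p = 0.206), by edgeR with Benjamini-Hochberg adjustment. Between the KO groups it was -1.83 (standard error 0.33, adjusted p = 0.164, edgeR with Benjamini-Hochberg adjustment), under 0.05 in 3 of 8 other settings. With a library left out, *CFB* was called lower in miR-23a KO without its replicate 2 (-1.49) and higher in miR-27a KO without Scr replicate 1 (0.85, against 0.18 without Scr replicate 2), and *C2* lower in miR-23a KO without its replicate 1 (-1.25, against -0.30 without its replicate 2).

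*C3* (gene 718) encodes the component on which all complement routes converge, and *C5* the first of the terminal chain. *C3* had 4731 and 2761 CPM in Scr, 2247 and 2113 in miR-23a KO, with 5967 and 5922 in miR-27a KO. The miR-27a KO libraries were the highest and the miR-23a KO libraries the lowest, with the Scr libraries far apart between them. The log2 fold change was -0.72 in miR-23a KO (standard error 0.55, adjusted p = 1.00) and 0.66 in miR-27a KO (standard error 0.26, adjusted p = 0.149), by edgeR with Benjamini-Hochberg adjustment. The size depended on the Scr library in both. For miR-23a KO it was -0.31 without Scr replicate 1 and -1.05 without Scr replicate 2. For miR-27a KO it was 1.11 (called) and 0.33 in the same order. *C3* was called higher in miR-27a KO in 4 of 8 other settings, DESeq2 among them. *C5* had 24.9 and 34.5 CPM in Scr, 16.2 and 60.9 in miR-23a KO, with 30.9 and 29.6 in miR-27a KO, and the groups overlapped.

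**Figure D5:**
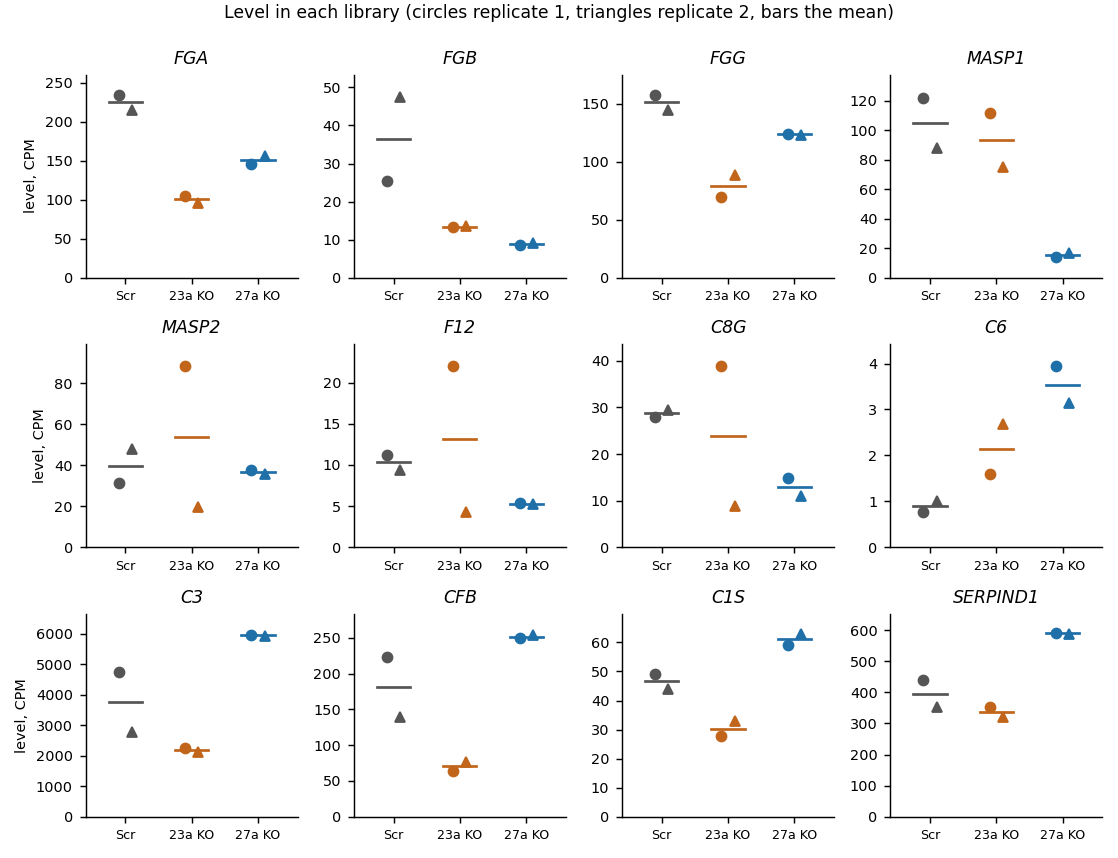
Level in CPM (vertical axes, from 0) of 12 members in the 3 groups, with circles for replicate 1, triangles for replicate 2 and bars for the mean of 2 libraries. The 3 fibrinogen chains are lower in all 4 KO libraries than in Scr, *MASP1* is low in miR-27a KO alone, and *C3*, *CFB*, *C1S* and *SERPIND1* are lowest in miR-23a KO and highest in miR-27a KO.

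The complement regulators are *CFI*, the protease that degrades active C3b and C4b, and *C4BPA* and *C4BPB*, neighbours on chromosome 1 that encode the chains of its cofactor C4b-binding protein. *C4BPA* had 61.7 and 77.1 CPM in Scr, 56.1 and 44.2 in miR-23a KO, with 92.1 and 97.1 in miR-27a KO. *C4BPB* had 43.5 and 62.7, 41.5 and 40.4, and 50.6 and 51.6 CPM in the same order. For *C4BPA* the miR-23a KO libraries were lowest and the miR-27a KO libraries highest, and for *C4BPB* only the first held. *C4BPA* was at 0.44 in miR-27a KO (standard error 0.13, adjusted p = 0.0800, edgeR with Benjamini-Hochberg adjustment) and was called without Scr replicate 2 (0.62) but not without Scr replicate 1 (0.30). *CFI* had 100.1 and 86.3 CPM in Scr, 57.6 and 173 in miR-23a KO, with 93.4 and 99.5 in miR-27a KO. Its miR-23a KO values lay on both sides of the rest, and it was called higher there without replicate 1 of that group (0.94) and was at -0.69 without replicate 2.

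In the terminal pathway, *C6* (gene 729, chr5:41142234-41261438, GRCh38, minus strand) encodes a component that joins the membrane pore after C5b. It had 11 and 15 counts in Scr, 21 and 50 in miR-23a KO, with 65 and 52 in miR-27a KO, which is 0.765 and 1.01, 1.60 and 2.69, and 3.94 and 3.13 CPM. All 4 KO libraries exceeded both Scr libraries. *C6* rose by 1.98 on the log2 scale in miR-27a KO (standard error 0.38, adjusted p = 0.0321, edgeR with Benjamini-Hochberg adjustment). It was called in 6 of 8 other settings, but not without miR-27a KO replicate 1 (1.81) or replicate 2 (2.14). In miR-23a KO it was at 1.35 (standard error 0.78, adjusted p = 1.00, edgeR with Benjamini-Hochberg adjustment). The 3'-UTR of *C6* holds the miR-23a-3p site printed above and no miR-27a-3p site.

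*C8G* (gene 733), *C8A* and *C8B* encode the chains of C8, which extends the pore. *C8G* had 28.0 and 29.5 CPM in Scr, 38.9 and 8.88 in miR-23a KO, with 14.96 and 11.1 in miR-27a KO. Both miR-27a KO libraries lay below both Scr libraries, and the miR-23a KO libraries lay on either side of all others. *C8G* fell by 1.15 on the log2 scale in miR-27a KO (standard error 0.19, adjusted p = 0.0232, edgeR with Benjamini-Hochberg adjustment). It was called in 7 of 8 other settings, at -0.90 with GC content and length corrected, but not without miR-27a KO replicate 2 (-0.93). Without miR-23a KO replicate 1 it was called lower in miR-23a KO (-1.65), while without replicate 2 it was at 0.44. *C8A* had 24 and 15 counts in Scr, 7 and 5 in miR-23a KO, with 25 and 25 in miR-27a KO. *C8B* had 18 and 14, 3 and 12, and 20 and 23 counts in the same order. These neighbours on chromosome 1 were low in both miR-23a KO libraries, with log2 fold changes of -1.69 and -1.19 (standard errors 0.86 and 0.89), and neither was called in any setting of either comparison with Scr. Without miR-23a KO replicate 1, *C8A* was at -2.24 and *C8B* at -0.71, and with replicate 2 left out they were at -1.32 and -2.22. Per length, *C8G* was far above them in Scr, at a mean of 73.5 TPM against 1.27 for *C8A* and 1.03 for *C8B*.

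Other genes of these systems were read from lists. Of 24 other genes of coagulation and fibrinolysis, 12 were tested in miR-27a KO. edgeR called 0 of them higher, against 3.52% of 13821 genes, and 4 lower (*SERPINE2*, *S100A10*, *F2RL1* and *ANXA2*), against 6.74%. At an unadjusted p under 0.05 there were 7, against 1902 higher and 2544 lower of 13821 genes. *SERPINE2*, which encodes an inhibitor of thrombin and plasminogen activators, had 15.7 and 9.52 CPM in Scr, 1.52 and 5.06 in miR-23a KO, with 0.969 and 1.02 in miR-27a KO. All KO libraries lay below Scr. The log2 fold change in miR-27a KO was -3.66 (standard error 0.37, adjusted p = 0.00854, edgeR with Benjamini-Hochberg adjustment), called with each library left out. *S100A10* (-0.87) and *ANXA2* (-0.61), which form a plasminogen receptor, and *F2RL1* (-0.79), a receptor cut by proteases, were not called without miR-27a KO replicate 1 (-0.83, -0.60 and -0.73) or replicate 2 (-0.89, -0.61 and -0.84), nor *ANXA2* without Scr replicate 1 (-0.44). Of 33 other complement genes, 13 were tested, 0 were called higher and 2 lower, the membrane regulator *CD55* (-1.08) and the fluid-phase regulator *CLU* (-1.03). *CD55* was not called without miR-27a KO replicate 1 (-1.13) or replicate 2 (-1.02), nor *CLU* without replicate 1 (-0.77). In miR-23a KO and between the KO groups 0 genes of these lists were called, with 1 of each list at an unadjusted p under 0.05 in miR-23a KO against Scr, and 0 and 2 between the KO groups.

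Of 10 genes of the vitamin K cycle and of factor processing, edgeR called 1 higher and 1 lower in miR-27a KO. Over all genes it called 3.52% and 6.74%. *FURIN*, the protease that removes propeptides from many of these factors, had 320 and 347 CPM in Scr, 455 and 120 in miR-23a KO, with 137 and 139 in miR-27a KO. Its miR-27a KO values were low and close together, at -1.28 on the log2 scale (standard error 0.08, adjusted p = 0.00400, edgeR with Benjamini-Hochberg adjustment), called with each library left out. The related protease *PCSK5* had 16 and 9 counts in Scr, 6 and 17 in miR-23a KO, with 99 and 125 in miR-27a KO. It rose there by 2.96 (standard error 0.39, adjusted p = 0.0153, edgeR with Benjamini-Hochberg adjustment), and was not called without miR-27a KO replicate 2 (2.80).

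Of 14 hepatocyte transcription factors, 13 were tested in miR-27a KO, with 1 called higher and 2 lower (*NR5A2* and *NR0B2*). Over all genes 3.52% were called higher and 6.74% lower. *NR5A2*, a nuclear receptor of liver genes, had 61 and 118 counts in Scr, 130 and 222 in miR-23a KO, with 0 and 2 in miR-27a KO. Summed over libraries and scaled to their size, Scr was 102 times miR-27a KO (95% exact interval 27.7 to 845, which covers counting error only), with an adjusted p of 0.0141 (edgeR with Benjamini-Hochberg adjustment). *NR0B2*, a corepressor among these receptors, had 198 and 233 CPM in Scr, 236 and 90.8 in miR-23a KO, with 107 and 107 in miR-27a KO (log2 fold change -1.01). Of 13 genes of interleukin-6 and acute-phase signalling, 12 were tested, 2 were called higher and 1 lower, beside the same shares of all genes. *SOCS3*, which interleukin-6 induces and which dampens its signal, had 149 and 40 counts in Scr, 3 and 17 in miR-23a KO, with 3 and 6 in miR-27a KO, all KO libraries below Scr. The log2 fold change in miR-27a KO was -4.55, and as the Scr libraries lay far apart, it was -3.27 without Scr replicate 1 and -5.21 without Scr replicate 2 (called in both, and in 6 of 8 other settings). *NFKB1* (0.78) and *IL1R1* (0.77) were not called without miR-27a KO replicate 1 (0.79 and 0.73) or replicate 2 (0.79 and 0.82).

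Markers were summed to check the label of the cells. All 14 hepatocyte and HepG2 markers had counts in each library, with sums of 40380 and 47010 CPM in Scr, 46750 and 38980 in miR-23a KO, with 35690 and 35620 in miR-27a KO, and *SERPINA1* was the most abundant by its mean over the 6 libraries, though below *ALB* in Scr replicate 2 and miR-23a KO replicate 2. In miR-27a KO against Scr, edgeR called 2 of these 14 higher and 4 lower, against 3.52% and 6.74% of all genes. The sums thus hide opposite shifts. *ALB* had 10420 and 15110 CPM in Scr and 2087 and 2150 in miR-27a KO, and *AFP* 2589 and 3913 against 184 and 192. *TF* had 3317 and 2266 against 6547 and 6745, and *FABP1* 27.7 and 23.5 against 76.7 and 82.2. edgeR called *ESAM* and *PDGFRB* lower, 1 of the 3 tested cholangiocyte markers higher and 0 leukocyte or platelet markers there, and 0 of all marker lists in the other comparisons. Of 10 endothelial markers 8 have a row, and their sums were 56.2 and 38.5 CPM in Scr, 33.8 and 29.7 in miR-23a KO, with 8.30 and 11.1 in miR-27a KO. *ESAM* made most of them in Scr and miR-23a KO, while *PECAM1* was the highest in miR-27a KO. *TEK* had 0 counts in 5 of 6 libraries and *CDH5* at most 11. Of 8 fibroblast and stellate markers 3 have a row, with sums from 5.12 to 30.0 CPM, nearly all *PDGFRB*. Of 8 leukocyte markers 6 have a row, with sums from 72.7 to 169 CPM, nearly all *CD68*, and *PTPRC* had at most 2 counts. Of 5 platelet markers 2 have a row, with sums from 0.608 to 3.41 CPM. The 5 cholangiocyte markers summed to 454 and 451 CPM in Scr, 333 and 248 in miR-23a KO, with 559 and 565 in miR-27a KO, with *KRT19* the most abundant in Scr and miR-23a KO, and *EPCAM* in miR-27a KO. The part of these markers in the members' values was not tested.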

How the data were processed

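The authors deposited gene-level values in columns named FPKM whose sums and fractions are those of expected counts, estimated by their quantification before deposit, and these were used as counts, rounded. The design had allowed for FPKM as an alternative, which the column sums contradicted. The submitters' notes name HISAT, StringTie, Cufflinks and GATK, and the role of each is not given in the sources used here.

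Counts were filtered with filterByExpr, scaled with TMM and tested with edgeR 4.0.16 (R 4.3.3), and also with DESeq2 1.42.0 and limma 3.58.1. Other settings were median-ratio scaling, no filter, a fit of all 6 libraries, a replicate block, and a correction for GC content and length (loess, span 0.5, degree 2, GENCODE 29), alone and with the block. The rule of any fold change was chosen after seeing the data. The methods were tested on simulated data, where few changed genes were recovered when replicates varied as much as in miR-23a KO.

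A member has its value in every library if called in any comparison or among the 3 highest in mean CPM in Scr, and so have neighbours and complex partners. *C5*, *CFI*, *FGL1*, *KNG1*, *MASP2*, *MBL2*, *SERPINC1* and *SERPIND1* were added after their values were seen. Of other lists, at most 4 called genes are named. Members and lists were chosen with earlier results of these data known.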

Additional observations from a re-analysis of the deposited data

Results flagged for a closer look

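For 5 of 35 members tested in both comparisons with Scr, both miR-23a KO libraries lay below both Scr libraries while both miR-27a KO libraries lay above them. Of all 13557 genes tested in both, 593 had this pattern and 193 the opposite one. Both comparisons share the Scr libraries. The members were *SERPIND1*, *C1S*, *C3*, *C4BPA* and *CFB*, and for *SERPIND1* the margin was small (353 CPM in miR-23a KO replicate 1 against 354 in Scr replicate 2).

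The difference itself was tested between the KO groups. The log2 fold change of miR-23a KO over miR-27a KO was -0.80 for *SERPIND1*, -1.01 for *C1S*, -1.44 for *C3*, -0.91 for *C4BPA* and -1.83 for *CFB*. The adjusted p (edgeR with Benjamini-Hochberg) was 0.621, 0.440, 0.340, 0.528 and 0.164 in this order, so none was called. Over 8 other settings the adjusted p ranged from 0.173 to 1.00 for *SERPIND1*, 0.123 to 1.00 for *C1S*, 0.0300 to 0.982 for *C3*, 0.192 to 1.00 for *C4BPA* and 0.00117 to 0.220 for *CFB* (edgeR, DESeq2 or limma, each with Benjamini-Hochberg). All 5 were called with a single miR-23a KO library, at -0.88, -0.90, -1.50, -1.10 and -1.72 without replicate 1 and -0.74, -1.14, -1.399, -0.75 and -1.96 without replicate 2. In those fits 2133 of 14408 and 3716 of 14209 genes were called lower. None was called without a miR-27a KO library. The cause of the difference was not tested.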

How the results depend on the processing

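The 8 other settings changed the calls of miR-27a KO against Scr most. Against 1 member higher and 4 lower by edgeR, DESeq2 called 2 higher and 5 lower (*F7* gained), the fit without a filter 0 and 3 (*F12* lost), the fit of all 6 libraries 0 and 1, the GC and length correction 5 and 4, and that correction with the block 6 and 4 (*FGA* gained and *F12* lost in both), with a median of 0.14 instead of 0.09 in log2 fold change. In that edgeR fit, 0 members were higher and 0 lower at an adjusted p under 0.001 (Benjamini-Hochberg). At any fold change and an adjusted p under 0.05, 3 were higher and 5 lower. Other settings did put members under 0.001 (each with Benjamini-Hochberg). With DESeq2 these were *FGB* (1.3e-08), *C8G* (0.00016) and *MASP1* (1.9e-33). With edgeR and the replicate block they were *FGB* (0.00083) and *MASP1* (3.4e-05), and with block and correction the same members (0.00021 and 2.1e-05). Over all genes, higher calls ran from 3 in the fit of all 6 libraries to 819 with the correction and the block. With a library left out there were 0 (without miR-27a KO replicate 1 or 2) to 5 (without Scr replicate 1) higher, 2 (without miR-27a KO replicate 2) to 6 (without Scr replicate 2) lower, and medians from 0.064 (without Scr replicate 1) to 0.20 (without Scr replicate 2).

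The replicate block gave 2 members higher and 3 lower (*F12* lost) in miR-27a KO, and 1 higher between the KO groups. Nothing in the labels ties replicates of the same number together, and over 14094 genes the log2 ratios between replicates correlated from group to group at 0.195, -0.001 and 0.019.

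In miR-23a KO against Scr, 0 members were called in any of the 8 settings. With a library left out, 0 (without a Scr library) to 2 (without miR-23a KO replicate 2) were higher, 0 to 5 (the same libraries) lower, and the median went from -0.66 (without miR-23a KO replicate 1) to -0.14 (without Scr replicate 1). Between the KO groups, 1 member was higher in DESeq2, in the fit of all 6 libraries, and with the block and GC correction together, and lower in DESeq2 1, with the GC correction 2, and with both 2. Without a filter the median was -0.12. With a library left out, 0 to 8 (without miR-23a KO replicate 2) were higher, 0 to 17 (without miR-23a KO replicate 1) lower, and the median ran from -0.66 (without miR-23a KO replicate 1) to -0.20 (without miR-27a KO replicate 1).

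5 members changed direction between the KO groups with a call when 1 miR-23a KO library was left out. Ranges were -0.74 to 0.50 for *PROC*, -0.97 to 0.75 for *SERPINF2* and -0.91 to 1.27 for *MASP2*, lowest without replicate 1 and highest without replicate 2, and -0.89 to 1.00 for *C5* and -0.74 to 0.84 for *CFI*, lowest without replicate 2 and highest without replicate 1. Of 280 member values of miR-27a KO against Scr under other settings, 257 kept their side of the threshold, 9 lost and 14 gained a call, and 16 values of 8 members changed sign, none of them called. The cause of these shifts was not tested.

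Without *C3*, the members' share was 0.385% and 0.386% in Scr, against 0.321% and 0.335% in miR-23a KO, with 0.432% and 0.431% in miR-27a KO. TMM scaling gave 0.871% and 0.651% in Scr, against 0.628% and 0.498% in miR-23a KO, with 1.01% and 1.01% in miR-27a KO. Depth limits members at a few counts, such as *PLG*. Each group had 2 libraries, and with a single library left in a group, it is assumed to vary like the other group. Clone and KO cannot be separated here, and the spread within the miR-23a KO pair limits what that comparison can call.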
